A study of Mus musculus with 6 samples.

Results

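The excitatory postsynaptic density of hippocampal neurons is described here through 33 genes for its scaffold proteins and the kinases, phosphatases and small GTPase regulators attached to them. The genes were chosen by symbol from a fixed list that leaves out the glutamate receptors, and each symbol matched 1 row of the 23361 rows in the expression table. The rule for choosing them uses no measured value, but the list was drawn up with earlier results of these data known. All 33 genes were above the lower limit for testing, a mean of 1 FPKM (fragments per kilobase of transcript, scaled to each library's mapped total). The lowest of them, Grip1, averaged 7.56 FPKM.

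Whole hippocampus of mice homozygous for a deletion of exon 4 of Tet1 (Tet1Δe4-/-, here Tet1-deficient, 3 mice) was compared with that of Tet1+/+ mice (wild-type, 3 mice), with 1 RNA library per mouse. The TET1 protein is a dioxygenase acting on methylated cytosine in DNA. Mice of both genotypes had received electroconvulsive shock, an electrical stimulus through ear clamps that evokes a tonic-clonic seizure, at 18 mA and 100 Hz with 0.2 ms pulses for 1.15 s, and hippocampi were taken 1.5 to 2 h later. Unshocked mice were not analysed here, so the comparison is between genotypes after a seizure; the sources used here give neither the strain nor the age, nor whether every cell carries the deletion.

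In excitatory neurons the postsynaptic density lies beneath the spine membrane opposite the presynaptic release site. MAGUK proteins such as PSD-95 hold glutamate receptors through PDZ domains, SAPAP proteins link the MAGUKs to Shank proteins, and Shanks connect to Homer and the actin cytoskeleton. Calcium entering through NMDA receptors binds calmodulin, which activates CaMKII and calcineurin, the kinase and phosphatase known for their parts in long-term potentiation and depression in the hippocampus.

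The libraries resembled each other, with Pearson correlations across tested genes between 0.965 and 0.990, but replicate 1 of each genotype stood apart. The first principal component held 53.3% of the variance and set Tet1-deficient replicate 1 and wild-type replicate 1 against the other 4 libraries. Wild-type replicate 1 had 63.5 FPKM of Xist, against 0.0389 to 0.202 FPKM in the other 5, and 0.0381 FPKM of the Y-linked gene Ddx3y, against 16.7 to 35.2 FPKM, so it was the one library with a female pattern. The 6 choroid plexus markers summed to 196 FPKM in Tet1-deficient replicate 2 and 303 FPKM in wild-type replicate 3, and to between 7.45 and 21.8 FPKM elsewhere. The hippocampal markers Prox1 of dentate granule cells (21.1 to 42.7 FPKM over the 6 libraries), Wfs1 of CA1 (51.7 to 71.7 FPKM) and Grik4 of CA3 (22.2 to 27.6 FPKM) were present throughout. Tet1 itself had 0.740, 0.685 and 0.638 FPKM in Tet1-deficient libraries, against 0.977, 0.718 and 0.897 FPKM in wild-type libraries. These Tet1 values overlapped (exact two-sided permutation p = 0.2, where 0.1 is the smallest 3 against 3 allows), and a gene-level value does not check the loss of 1 exon.

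None of the 33 genes passed the test between genotypes. In limma (log2(FPKM + 1), two-sided, Benjamini-Hochberg adjustment over 12533 genes) 0 members reached an adjusted p under 0.05, against 4 of all genes tested (0.0319%), and the lowest adjusted p among the members was 1.00. At an unadjusted limma p under 0.05 there was 1 member, Camk2a, against 1.36% of all genes. Counting genes whose 3 Tet1-deficient and 3 wild-type libraries did not overlap, 1 member lay higher (Camk2a; background 1.91%) and 1 lower (Camk2d; background 2.21%). The log2 differences, Tet1-deficient minus wild-type, ran between −0.19 for Camk2d and 0.21 for Camk2a; 19 were positive and 14 negative. Their median was 0.022, beside 0.0055 over all genes tested, of which 6632 were positive and 5901 negative. Among the other 32 members the unadjusted limma p ran from 0.12 (Camk2d) to 0.979 (Dlg3). The widest 95% interval was that of Dlgap3, −0.59 to 0.72, and the narrowest that of Camk2a, 0.040 to 0.39, which is the precision that 3 mice per genotype gave.

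**Figure D1:**
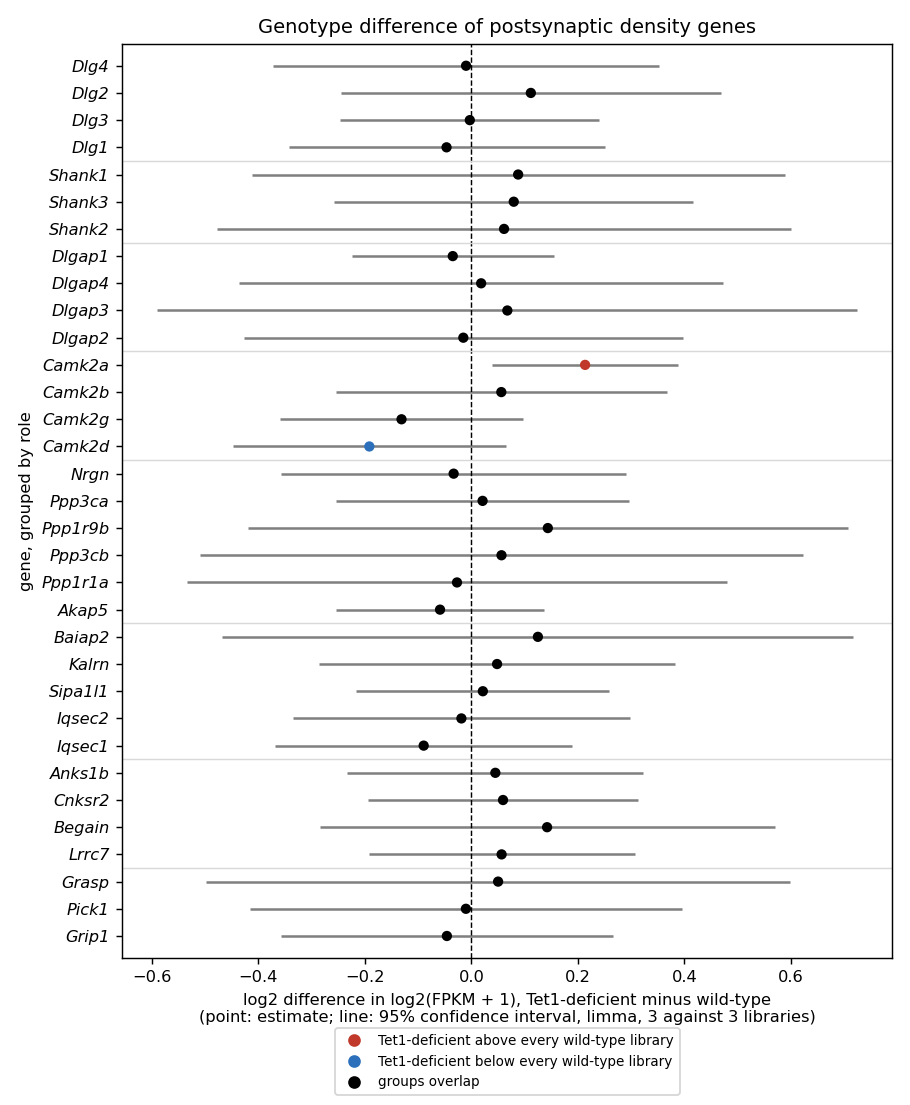
Log2 difference of FPKM + 1 (Tet1-deficient minus wild-type, horizontal axis) for the 33 members, grouped by role; points are limma estimates over 3 libraries per genotype and bars are 95% intervals. The interval of Camk2a, 0.040 to 0.39, is the one that leaves out 0 before adjustment.

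The members covered a wide range of levels. Camk2a (rank 13 by mean FPKM of the 23361 genes), Nrgn (rank 29), Ppp3ca (rank 50), Camk2b (rank 75) and Ppp1r9b (rank 91) led, and Dlg4 had rank 137. At the other end Camk2d had rank 7134 and Grip1 rank 7634. FPKM is scaled to transcript length, but the values also varied with transcript GC content between libraries, as described below. Levels of different genes can therefore be set beside each other only roughly.

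**Figure D2:**
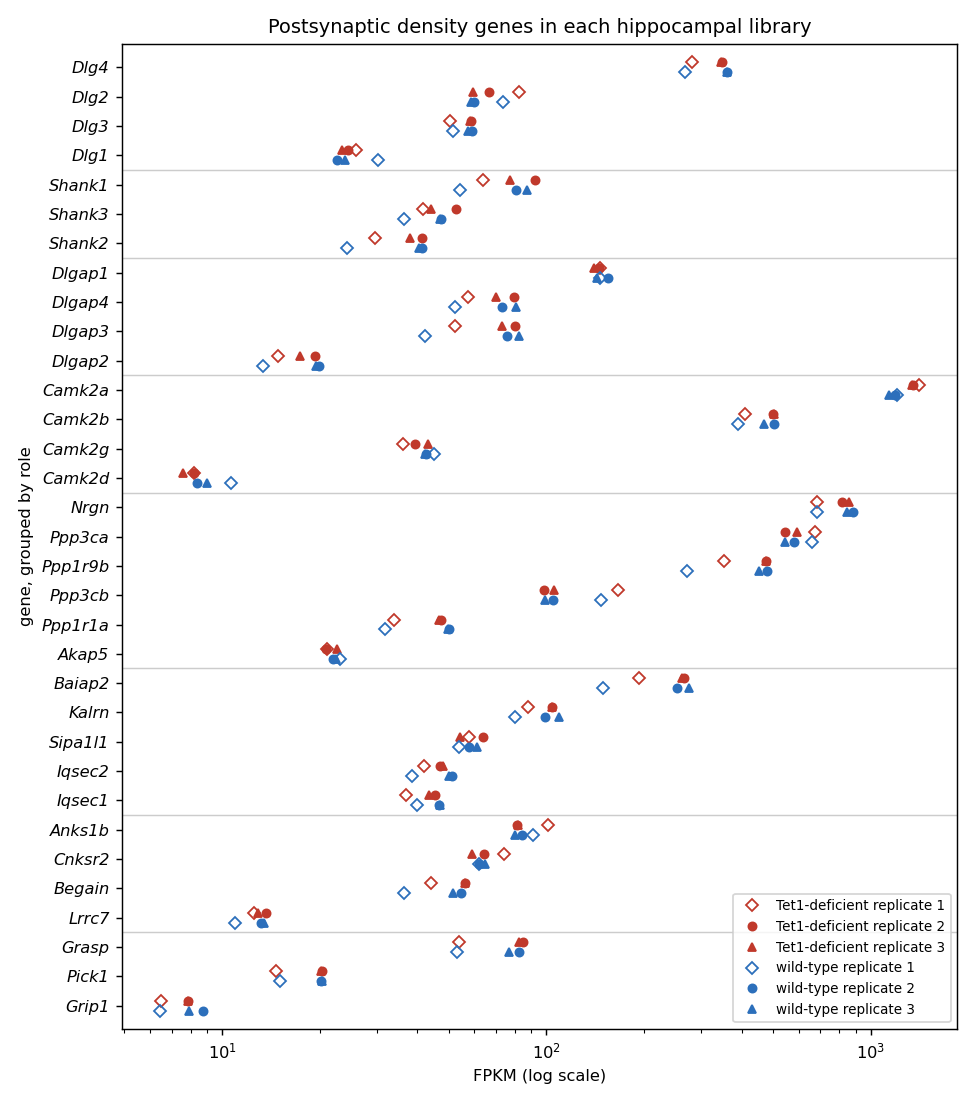
FPKM of the 33 members in each library (log axis), grouped by role, with the 3 Tet1-deficient libraries and the 3 wild-type libraries as separate points. The levels run from 6.45 FPKM for Grip1 to 1415 FPKM for Camk2a, and the genotypes overlap for all members but Camk2a and Camk2d.

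CaMKII is a holoenzyme of kinase subunits that stay active after autophosphorylation, and in the forebrain it is built chiefly of the alpha and beta subunits. Camk2a, for the alpha subunit, had 1415, 1354 and 1339 FPKM in Tet1-deficient libraries, against 1208, 1192 and 1142 FPKM in wild-type libraries. Every Tet1-deficient library lay above every wild-type one. The mean was 1369 ± 40.3 FPKM in Tet1-deficient and 1181 ± 34.3 FPKM in wild-type libraries (SD, n = 3 each), a ratio of 1.16. The log2 difference was 0.21 (SE 0.073). Its limma p was 0.0230 unadjusted and 1.00 adjusted, so the difference did not hold after adjustment over all genes. Leaving out 1 library at a time gave log2 differences of 0.19 to 0.23, and the unadjusted limma p stayed under 0.05 in 1 of these 6 fits, the one without wild-type replicate 1 (0.0298). Quantile normalization gave 0.089 with an unadjusted limma p of 0.277. The fit with no lower limit on FPKM gave 0.21 with an unadjusted limma p of 0.151. Camk2a lies on chromosome 18 from 60925618 to 60988152 (mm10), plus strand, and is protein-coding.

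Cell composition was not measured beside Camk2a other than through marker sums. The 12 pan-neuronal markers summed to 4511 to 4765 FPKM in Tet1-deficient libraries and 4269 to 4722 FPKM in wild-type libraries. The 6 markers of CA1 pyramidal cells, which express much Camk2a, summed to 176 to 196 FPKM in Tet1-deficient libraries and 184 to 225 FPKM in wild-type libraries, and the 6 dentate granule cell markers to 73.3 to 113 FPKM in Tet1-deficient and 86.0 to 94.0 FPKM in wild-type libraries. The 6 CA3 markers summed to 99.4 to 108 FPKM in Tet1-deficient libraries and 94.9 to 102 FPKM in wild-type libraries. All 4 sums overlapped between the genotypes, no marker in them was at 0 in all libraries, and their part in the Camk2a values was not tested. In whole tissue, fewer cells of a type and less RNA per cell cannot be told apart.

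Camk2d, for the delta subunit, which is abundant in heart and scarce here, had 8.22, 8.19 and 7.58 FPKM in Tet1-deficient libraries, against 10.6, 8.35 and 8.96 FPKM in wild-type libraries. Every Tet1-deficient value was below every wild-type value, though Tet1-deficient replicate 1 and wild-type replicate 2 lay close together. The mean was 8.0 ± 0.360 FPKM in Tet1-deficient and 9.31 ± 1.18 FPKM in wild-type libraries (SD, n = 3 each), a ratio of 0.859. The log2 difference was −0.19 (SE 0.108; limma p 0.12 unadjusted and 1.00 adjusted). Without wild-type replicate 1, the highest library, the log2 difference was −0.10. The promoter of Camk2d is shown because TET1 acts on methylated CG dinucleotides and Camk2d was the one member lower in every Tet1-deficient library. The window covers 250 bases before to 50 after the RefSeq start, chr3:126596701-126597000 on the plus strand of GRCm38.p6, with each CG in capitals; it holds 31 CG dinucleotides and is 70.3% G or C.
Camk2d promoter: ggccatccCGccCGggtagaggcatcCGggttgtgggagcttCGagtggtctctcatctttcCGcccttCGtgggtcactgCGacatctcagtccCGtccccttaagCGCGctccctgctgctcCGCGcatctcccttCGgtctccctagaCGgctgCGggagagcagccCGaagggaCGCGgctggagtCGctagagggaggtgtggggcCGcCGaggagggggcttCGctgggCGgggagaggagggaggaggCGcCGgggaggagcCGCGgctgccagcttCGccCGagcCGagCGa
RefSeq windows of this kind matched 26 of the 33 members; Shank1, Shank2, Dlgap2, Camk2a, Camk2g, Ppp3ca and Ppp1r1a were not matched. Taking for each gene its window with most CG, the members had a median of 27.5 CG (range 2 to 52), beside 23 over the 9306 tested genes with a window. In that window at least 10 CG were found in 23 of the 26 members and in 88.0% of those tested genes. Counted over all 32851 single windows, with further starts and untested genes included, it was 43.5%, which is not a share of genes. CG reads the same on both strands. Methylation was not measured in these samples.

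Camk2b, for the actin-binding beta subunit, had 410, 498 and 505 FPKM in Tet1-deficient libraries, against 391, 502 and 468 FPKM in wild-type libraries, and the groups overlapped. Camk2g, for the gamma subunit, averaged 39.5 ± 3.48 FPKM in Tet1-deficient libraries and 43.3 ± 1.58 FPKM in wild-type libraries (SD, n = 3 each), also with overlap. The order Camk2a, Camk2b, Camk2g, Camk2d held in all 6 libraries. Summed over the 4 genes, CaMKII transcript came to 1870.1, 1899.7 and 1895 FPKM in Tet1-deficient libraries, against 1655, 1745 and 1661 FPKM in wild-type libraries, without overlap; Camk2a makes up most of this sum.

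Shares within the CaMKII sum compare the subunits in 1 library with each other. Camk2a made up 75.7, 71.3 and 70.7% in Tet1-deficient libraries, against 73.0, 68.3 and 68.8% in wild-type libraries, which overlapped. Camk2g made up 1.93, 2.07 and 2.27% in Tet1-deficient libraries, against 2.73, 2.43 and 2.55% in wild-type libraries. Camk2d made up 0.440, 0.431 and 0.400% in Tet1-deficient libraries, against 0.642, 0.478 and 0.539% in wild-type libraries. Both minor subunits had lower shares in every Tet1-deficient library. Each gave an exact two-sided permutation p of 0.1, the smallest possible, and 0.85 after adjustment over the 17 shares tested in 6 gene families. That smallest value lies above the threshold used for limma, so the permutation test could not have passed any share and decides nothing here. A share also falls when another part of the sum rises, and most of the CaMKII sum is Camk2a. In FPKM, Camk2g overlapped between genotypes and Camk2d did not. The other 15 shares overlapped between genotypes.

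**Figure D3:**
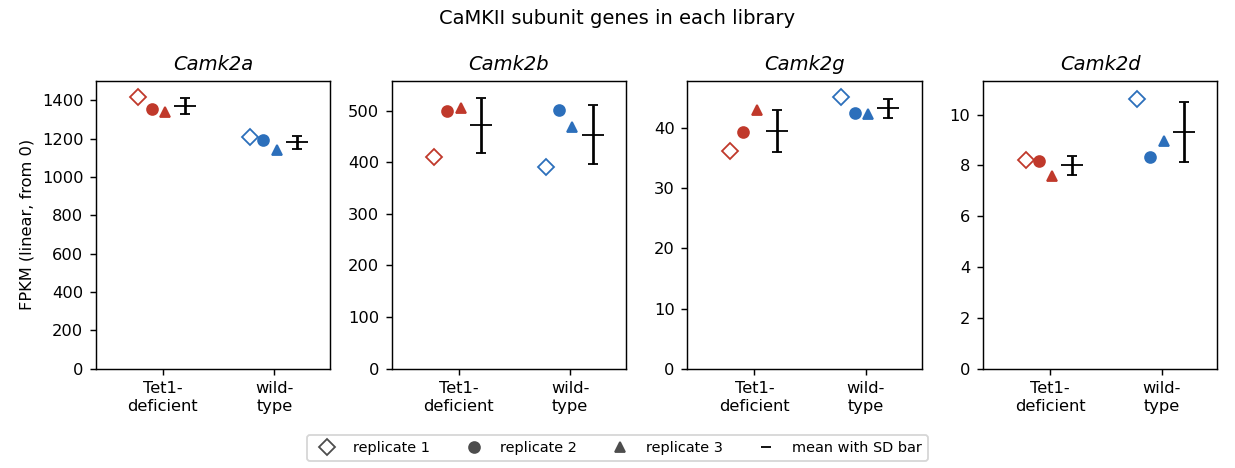
FPKM of the 4 CaMKII subunit genes by genotype (Tet1-deficient left, wild-type right, axes from 0); points are libraries and lines are means with SD, n = 3 each. The Camk2a points lie at 1339 to 1415 FPKM in Tet1-deficient libraries and at 1142 to 1208 FPKM in wild-type libraries, while those of Camk2b and Camk2g overlap.

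The MAGUK scaffolds overlapped between genotypes. Dlg4, for PSD-95, the core scaffold that anchors AMPA and NMDA receptor complexes, had 282, 349 and 346 FPKM in Tet1-deficient libraries, against 267, 362 and 360.5 FPKM in wild-type libraries. Replicate 1 was the low library in both genotypes, and the means, 326 ± 37.8 FPKM in Tet1-deficient and 329.7 ± 54.4 FPKM in wild-type libraries (SD, n = 3 each), differed by far less than that spread (log2 difference −0.0099, SE 0.153). PSD-95 transcript made up 64.0 to 71.1% of the 4 Dlg genes in Tet1-deficient libraries and 63.3 to 72.0% in wild-type libraries. Dlg2, for PSD-93, averaged 69.4 FPKM in Tet1-deficient and 63.9 FPKM in wild-type libraries (log2 difference 0.11). Dlg1, for SAP97, averaged 24.6 FPKM in Tet1-deficient and 25.6 FPKM in wild-type libraries (log2 difference −0.047). Dlg3, for SAP102, an X-linked scaffold of early synapses, averaged 55.8 FPKM in Tet1-deficient and 55.9 FPKM in wild-type libraries (log2 difference −0.0029, and 0.0057 under median-of-ratios scaling).

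The Shank and SAPAP genes form the layer between the MAGUKs and actin. Shank1 had 63.8, 92.0 and 77.3 FPKM in Tet1-deficient libraries, against 54.0, 80.4 and 86.9 FPKM in wild-type libraries. Its lowest library was replicate 1 in both genotypes and the groups overlapped (log2 difference 0.088, SE 0.211). Shank2 averaged 36.3 FPKM in Tet1-deficient and 35.4 FPKM in wild-type libraries. Shank3, the gene lost in human Phelan-McDermid syndrome, averaged 46.1 FPKM in Tet1-deficient and 43.7 FPKM in wild-type libraries. The log2 differences of the 3 Shank genes were between 0.061 and 0.088. All 3 were negative with estimated library weights (−0.077 to −0.046) and without wild-type replicate 1 (−0.18 to −0.042). They were positive without Tet1-deficient replicate 1 (0.15 to 0.22). In the 4 libraries without replicate 1 of either genotype they were 0.014 for Shank1, −0.047 for Shank2 and 0.026 for Shank3. Among the SAPAP linkers, which bind the guanylate kinase domain of PSD-95, Dlgap1 had 147, 146 and 141 FPKM in Tet1-deficient libraries, against 146, 154 and 143 FPKM in wild-type libraries. Dlgap1 varied least of the 4, with a coefficient of variation of 2.25% in Tet1-deficient and 4.03% in wild-type libraries, and its groups overlapped (log2 difference −0.035, SE 0.080). Dlgap2 averaged 17.2 FPKM in Tet1-deficient and 17.6 FPKM in wild-type libraries, and Dlgap3 68.4 FPKM in Tet1-deficient and 66.8 FPKM in wild-type libraries. Dlgap4 averaged 69.03 FPKM in Tet1-deficient and 68.7 FPKM in wild-type libraries. Shank1, Shank3, Dlgap1 and Dlgap4, like Iqsec1 and Lrrc7, each overlap exons of 1 gene on the opposite strand. With no strand setting given, the reads of both genes at such a place cannot be separated. Dlg2 overlaps exons of 2 genes on its own strand and Pick1 those of 1, where a strand setting would not separate the reads.

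Around the kinase sit calcineurin, protein phosphatase 1 regulators, an anchor and a calmodulin buffer. Nrgn, for neurogranin, which holds calmodulin at low calcium, had 681, 816 and 860.4 FPKM in Tet1-deficient libraries, against 684, 884 and 848 FPKM in wild-type libraries. Replicate 1 was again the low library of each genotype, and the groups overlapped (means 786 ± 93.3 FPKM in Tet1-deficient and 805 ± 107 FPKM in wild-type libraries, SD, n = 3 each). Ppp3ca and Ppp3cb encode the catalytic subunits of calcineurin. Ppp3ca averaged 604 FPKM in Tet1-deficient and 595 FPKM in wild-type libraries, and Ppp3cb 123 FPKM in Tet1-deficient and 117 FPKM in wild-type libraries. The alpha form made up 80.2, 84.7 and 84.9% of the pair in Tet1-deficient libraries, against 81.7, 84.7 and 84.7% in wild-type libraries. Ppp1r9b, for spinophilin, which targets protein phosphatase 1 to spines, averaged 435 ± 70.4 FPKM in Tet1-deficient and 402 ± 113 FPKM in wild-type libraries (SD, n = 3 each; log2 difference 0.14, SE 0.237). Without wild-type replicate 1 that difference was −0.12, and in the 4 libraries without replicate 1 of either genotype it was 0.027. Ppp1r1a, for inhibitor-1 of the same phosphatase, averaged 42.7 FPKM in Tet1-deficient and 43.9 FPKM in wild-type libraries. Akap5, for the anchor of protein kinase A and calcineurin, averaged 21.6 ± 0.952 FPKM in Tet1-deficient and 22.5 ± 0.50 FPKM in wild-type libraries (SD, n = 3 each).

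The small GTPase regulators shape spine actin and receptor traffic. Baiap2, for IRSp53, a membrane-bending partner of Rac and Cdc42, had 193, 266 and 262 FPKM in Tet1-deficient libraries, against 149, 252 and 275 FPKM in wild-type libraries. The groups overlapped, and replicate 1 was lowest in each (log2 difference 0.12, SE 0.250). That difference was −0.15 without wild-type replicate 1 and 0.0036 in the 4 libraries without replicate 1 of either genotype. Kalrn, for the Rac exchange factor kalirin, averaged 98.9 FPKM in Tet1-deficient and 96.1 FPKM in wild-type libraries. Sipa1l1, for a Rap GTPase-activating protein of spines, averaged 58.5 FPKM in Tet1-deficient and 57.6 FPKM in wild-type libraries. Of the Arf exchange factors, Iqsec1 averaged 41.9 FPKM in Tet1-deficient and 44.6 FPKM in wild-type libraries, and Iqsec2 45.6 FPKM in Tet1-deficient and 46.5 FPKM in wild-type libraries. All 5 log2 differences lay between −0.089 and 0.12.

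Adaptors that bind PSD-95 or CaMKII were represented by Anks1b, Cnksr2, Begain and Lrrc7. Anks1b, for AIDA-1, a PSD-95 partner that moves to the nucleus with activity, had 101, 81.5 and 81.5 FPKM in Tet1-deficient libraries, against 91.2, 84.2 and 79.9 FPKM in wild-type libraries. Here replicate 1 was the high library of both genotypes, and the groups overlapped (log2 difference 0.045, SE 0.117). X-linked Cnksr2, for the Ras pathway scaffold MAGUIN, averaged 65.8 FPKM in Tet1-deficient and 62.8 FPKM in wild-type libraries. Lrrc7, for densin, averaged 13.1 FPKM in Tet1-deficient and 12.5 FPKM in wild-type libraries. Begain, for a PSD-95-binding protein, averaged 52.1 FPKM in Tet1-deficient and 47.5 FPKM in wild-type libraries (log2 difference 0.14). That difference was −0.037 without wild-type replicate 1 and 0.078 in the 4 libraries without replicate 1 of either genotype. Of the 3 X-linked members in wild-type replicate 1, the library with Xist, Dlg3 had 51.4 FPKM, Iqsec2 38.4 FPKM and Cnksr2 61.8 FPKM. Each was the lowest of the wild-type libraries, though Cnksr2 had 62.1 FPKM in wild-type replicate 2. That library was the lowest of its genotype for 69.7% of the members and 47.9% of all genes tested. Dlg3 and Iqsec2 were also lowest in Tet1-deficient replicate 1, where Cnksr2 was highest.

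PDZ proteins of receptor trafficking were the last group. Grasp, for tamalin, a scaffold of group I metabotropic receptors, had 53.7, 84.9 and 82.4 FPKM in Tet1-deficient libraries, against 53.2, 82.6 and 77.0 FPKM in wild-type libraries. Within each genotype replicate 1 lay far below the other pair, and between genotypes the values overlapped (log2 difference 0.050, SE 0.231). Grip1, an AMPA receptor binding protein with several PDZ domains, had 6.50, 7.86 and 7.86 FPKM in Tet1-deficient libraries, against 6.45, 8.75 and 7.93 FPKM in wild-type libraries, also with overlap. Pick1, which binds the same receptors and has a BAR domain, averaged 18.4 FPKM in Tet1-deficient and 18.5 FPKM in wild-type libraries.

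The members also differed between libraries in a way that both genotypes shared. Replicate 1 minus the mean of the other pair reached −0.88 on the log2 scale for Dlgap3 in wild-type hippocampus, beside genotype differences of at most 0.21. Replicate 1 was the lowest of its 3 libraries for 22 of the 33 members in Tet1-deficient (66.7%; 48.5% of all genes tested) and for 23 of 33 in wild-type hippocampus (69.7%; 47.9% of all genes). It was the highest for 9 members in each genotype (27.3%), and for 39.1% of all genes in Tet1-deficient and 39.6% in wild-type hippocampus. The median deviation over the members was −0.24 in Tet1-deficient and −0.33 in wild-type hippocampus, and over all genes −0.043 in Tet1-deficient and −0.036 in wild-type hippocampus. Across the 33 genes these deviations correlated between the genotypes (Pearson r = 0.898, a description across genes of the same libraries); 22 genes were lower and 7 higher in replicate 1 of both. Replicate numbers are names, so no mouse of one genotype is paired with one of the other.

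**Figure D4:**
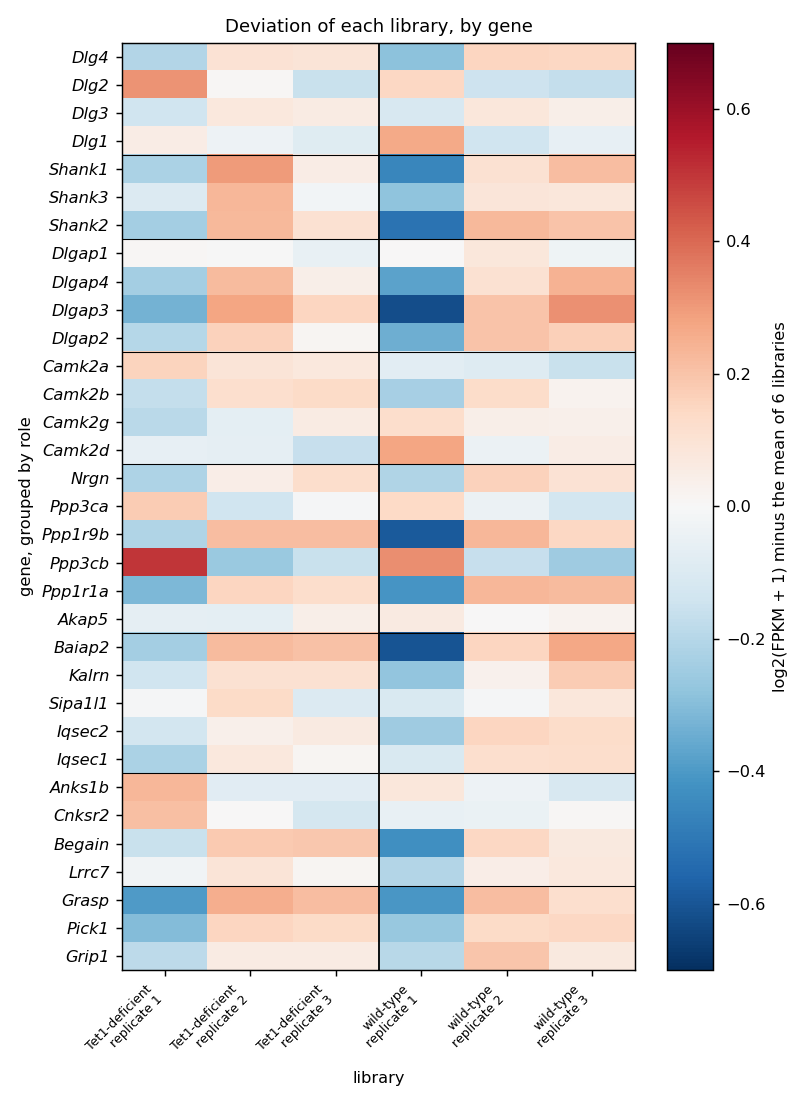
Heat map of log2(FPKM + 1) minus the mean of the 6 libraries for each of the 33 members (rows, grouped by role). Columns are libraries, with Tet1-deficient on the left and wild-type on the right. Set against replicates 2 and 3 of its genotype, replicate 1 was lower in both genotypes for 22 members and higher in both for 7.

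The members low in replicate 1 were mostly those with GC-rich transcripts. Over the longest transcript of each gene the members' GC content ran from 39.8% to 63.9%, with a median of 52.6%, beside 50.2% over the 11811 tested genes with a value; their median length was 5343 nucleotides, beside 3258. Pearson's r between GC content and the replicate 1 deviation was −0.78 in Tet1-deficient and −0.80 in wild-type hippocampus across the 33 members. Across all 11811 genes it was −0.62 in Tet1-deficient and −0.56 in wild-type hippocampus. These are descriptions across genes that share 6 libraries. Dlg4 was an exception, with 46.8% GC and deviations of −0.30 in Tet1-deficient and −0.43 in wild-type hippocampus, and so was Kalrn, with 45.5% GC and −0.25 in Tet1-deficient and −0.38 in wild-type hippocampus. Camk2a, with 53.3% GC, deviated little, by 0.072 in Tet1-deficient and 0.050 in wild-type hippocampus. The ends of the GC range, chosen after their values were seen, are Ppp3cb and Dlgap3. Ppp3cb had 167, 98.2 and 105 FPKM in Tet1-deficient libraries, against 148, 105 and 98.9 FPKM in wild-type libraries. Dlgap3 had 52.1, 80.0 and 73.2 FPKM in Tet1-deficient libraries, against 42.4, 75.8 and 82.3 FPKM in wild-type libraries. Replicate 1 of both genotypes was thus the high library for Ppp3cb and the low library for Dlgap3. Bases 601 to 720 of the Ppp3cb coding sequence (GENCODE M21, GRCm38; the gene lies at chr14:20499364-20546573, minus strand) are shown, with G and C in capitals, because Ppp3cb has the lowest GC content of the members. The window is 38.3% G or C, the nearest of its coding windows to the whole transcript.
Ppp3cb coding window: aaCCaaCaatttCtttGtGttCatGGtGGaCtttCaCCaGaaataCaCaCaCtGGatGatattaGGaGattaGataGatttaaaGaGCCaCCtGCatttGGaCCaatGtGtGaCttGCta

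After a trend on GC content and transcript length was removed from each library, the median deviation of replicate 1 over the members was −0.014 in Tet1-deficient and −0.11 in wild-type hippocampus. In the genotype comparison on those values Camk2a had a log2 difference of 0.25, Camk2d of −0.21 and Begain of 0.16, and 0 members passed the threshold. The unadjusted limma p of these 3 members was 0.0488, 0.0312 and 0.0377. They were the members with an unadjusted p under 0.05, beside 285 of the 11811 genes in that fit. In the fit to the 4 libraries without replicate 1 of either genotype, Camk2a had 0.21 and Camk2d −0.12, and again 0 members passed. With that split of the libraries as a term in a fit to all 6, the log2 differences were those of the fit without it. The limma p of Camk2a was then 0.00577 unadjusted and 0.509 adjusted, and that of Camk2d 0.0282 unadjusted and 0.729 adjusted. That of Begain was 0.0391 unadjusted and 0.729 adjusted, and 848 of the 12533 genes had an unadjusted p under 0.05. What made replicate 1 differ was not tested.

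**Figure D5:**
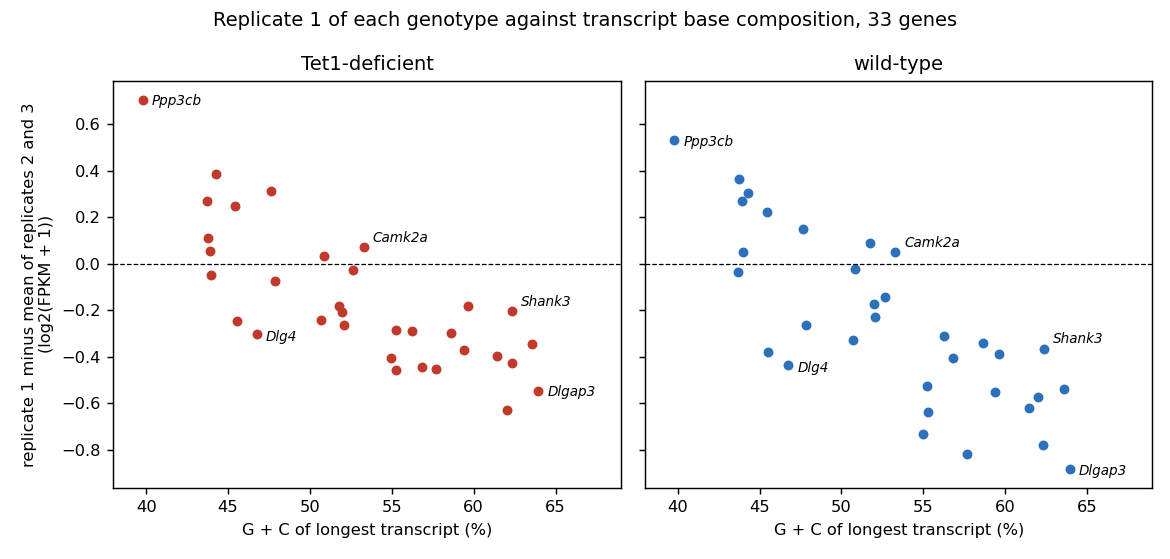
GC content of each member's longest transcript (percent, horizontal axis) against replicate 1 minus the mean of replicates 2 and 3 (log2(FPKM + 1)), with Tet1-deficient on the left and wild-type on the right. The deviation is high for Ppp3cb at 39.8% GC and low for Dlgap3 at 63.9% GC in both panels (r = −0.78 in Tet1-deficient and −0.80 in wild-type).

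A further 110 postsynaptic genes of the same kinds, in 4 lists, gave no call either. Of these, 108 were tested and 0 passed in limma; 0 had an unadjusted p under 0.05. Their log2 differences were positive for 69 and negative for 39, with a median of 0.026. Groups did not overlap for 1 higher gene (background 1.91%) and 1 lower gene (background 2.21%). The higher one, Ppp3cc, for another calcineurin catalytic subunit and named after its values were seen, had 6.02, 6.78 and 6.23 FPKM in Tet1-deficient libraries, against 5.58, 5.84 and 5.80 FPKM in wild-type libraries. The lower one, Cyfip1, for a WAVE complex subunit that also binds the fragile X protein, had 22, 21.6 and 21.2 FPKM in Tet1-deficient libraries, against 24.4, 22.5 and 22.7 FPKM in wild-type libraries. Neither difference passed the test (unadjusted limma p 0.195 and 0.271, adjusted p 1.00 for both).

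Of the 22 other scaffolds tested, 19 had positive and 3 negative log2 differences (median 0.036). Over all 12533 genes tested, 6632 were positive and 5901 negative. The genes of a list share the same 6 libraries, so these counts are descriptions. The scaffold Magi1 averaged 11.9 ± 2.34 FPKM in Tet1-deficient and 14.7 ± 1.93 FPKM in wild-type libraries (SD, n = 3 each; log2 difference −0.30). Homer3, a Shank-binding protein, averaged 22.5 ± 2.80 FPKM in Tet1-deficient and 20.3 ± 2.27 FPKM in wild-type libraries (log2 difference 0.14). Both groups of values overlapped. Among 37 other kinases, phosphatases and calcium proteins, 25 were positive and 12 negative (median 0.034). The calmodulin-binding Pcp4 averaged 309 ± 14.7 FPKM in Tet1-deficient and 273 ± 29.5 FPKM in wild-type libraries (SD, n = 3 each; log2 difference 0.18). The calmodulin gene Calm2 averaged 1770.4 ± 141 FPKM in Tet1-deficient and 1603 ± 115 FPKM in wild-type libraries (log2 difference 0.14), and both genes overlapped between genotypes. Among 23 other GTPase regulators, 11 were positive and 12 negative (median −0.0012). The calcium-dependent Ras exchange factor Rasgrf1 averaged 179 ± 26.7 FPKM in Tet1-deficient and 209 ± 40.3 FPKM in wild-type libraries (SD, n = 3 each; log2 difference −0.21). Bcr, a regulator of small GTPases, averaged 23.1 ± 1.66 FPKM in Tet1-deficient and 25.5 ± 3.14 FPKM in wild-type libraries (log2 difference −0.13), and both genes overlapped. Among 26 actin and spine proteins, 14 were positive and 12 negative (median 0.0055), and Wasf3, for an activator of Arp2/3, averaged 35.4 ± 2.45 FPKM in Tet1-deficient and 37.8 ± 1.88 FPKM in wild-type libraries (SD, n = 3 each; log2 difference −0.093).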

How the data were processed

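RNA libraries of whole hippocampus from 3 Tet1-deficient and 3 wild-type mice were analysed. FPKM values per gene were deposited by the authors in 1 table with 1 column per library; every column was used (0 left out). TopHat2 2.0.9, Cufflinks 2.1.1 and genome build mm10 are named per the submitters' processing notes. Not given in the sources used here: the annotation, the strand setting, the handling of reads with several positions, any filter. FPKM holds no read counts, so depth is unknown and no interval that needs it is given. FPKM sums were 371014 to 390042 per library.

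Genes averaging 1 FPKM or more (12533 of 23361) were tested as log2(FPKM + 1), which understates changes of low genes, with limma 3.58.1 in R 4.3.3 (intensity trend, no covariate, two-sided, Benjamini-Hochberg adjustment, threshold 0.05). Tet1, under that limit, was fitted with all 19123 genes above 0. Shares within gene families were tested by exact permutation. The limma step was tested on simulated data with known differences. The members and lists were chosen with earlier results of these data known. Values in every library are given for members with an unadjusted p under 0.05 or groups that do not overlap, the 2 highest and 2 lowest, and the highest of each role group; of each further list, the 2 smallest unadjusted p. Of the further lists, 2 genes were not analysed here. GC content, length and positions came from GENCODE M21 (GRCm38), by symbol, for 11811 tested genes, and promoters from RefSeq (GRCm38.p6). Alternatives were a pseudocount of 0.1 FPKM, no lower limit, median-of-ratios scaling, quantile normalization, no trend, estimated library weights, a threshold of 0.1, each library left out, and 4 libraries; removal of a spline trend (5 degrees of freedom) on GC content and length, and a term for the libraries set apart by principal components, were chosen after seeing the data.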

Additional observations from a re-analysis of the deposited data

How the results depend on the processing

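No member and none of the further postsynaptic genes passed the threshold under any alternative run, and Camk2a and Camk2d kept their directions in all 15 alternative fits. Over all tested genes the count past the threshold, 4, became 59 with estimated library weights, 12 in the 4 libraries without replicate 1 of either genotype, 8 with the split of the libraries as a term, and between 0 and 6 when 1 library was left out. The weights were 0.176, 0.988 and 6.89 for Tet1-deficient replicates 1 to 3, and 0.178, 2.99 and 1.57 for wild-type replicates 1 to 3. They were lowest for the pair that stood apart, and the weighted Tet1-deficient values rested mostly on replicate 3. With the weights, the adjusted limma p of Camk2a was 0.183, the lowest of any member. The unadjusted p of Camk2a was under 0.05 in 9 of 16 fits, the reported one included. No paired analysis was possible because the labels give no replicate numbers that the genotypes share; the numbers used here only name the samples in their order. The term for the split is not a pairing, as it came from the first principal component.

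Signs of small differences depended on the setting, and the cause was not tested. The log2 difference of these members turned to 0.019 for Dlg1, −0.046 for Shank1, −0.077 for Shank2, −0.058 for Shank3, −0.052 for Dlgap3, −0.075 for Dlgap4, 0.013 for Akap5, −0.082 for Sipa1l1, −0.022 for Lrrc7, −0.072 for Cnksr2, −0.019 for Anks1b and 0.0055 for Pick1 with library weights. In the 4 libraries it turned to 0.037 for Dlg1, 0.0084 for Dlg3, −0.047 for Shank2, −0.045 for Dlgap3, −0.042 for Dlgap4, −0.0015 for Ppp3cb, −0.017 for Sipa1l1, −0.0060 for Lrrc7, −0.041 for Cnksr2, −0.0086 for Anks1b and 0.0032 for Pick1, and the share of Ppp3ca differed by 0.132 percentage points, against −0.400 in all 6. After removal of GC content and length it turned to 0.033 for Dlg3, 0.024 for Dlgap2, −0.012 for Ppp3cb, 0.019 for Iqsec2 and 0.0063 for Pick1. Median-of-ratios scaling gave 0.0057 for Dlg3, and quantile normalization gave −0.0051 for Camk2b and −0.0060 for Sipa1l1. Pseudocount, lower limit and trend turned 0 members. A fit that left out replicate 1 of a single genotype kept that of the other. Leaving out 1 library turned 1 to 14 of the 33. Most turned without wild-type replicate 1 (14), then without Tet1-deficient replicate 1 (13), and fewest without Tet1-deficient replicate 3. With 1 library left out, 27 members turned at least once. Over these 6 fits the log2 differences spanned −0.13 to 0.074 for Dlg1, −0.017 to 0.22 for Dlg2, −0.060 to 0.066 for Dlg3, −0.15 to 0.090 for Dlg4, −0.12 to 0.22 for Shank1, −0.18 to 0.20 for Shank2, −0.042 to 0.15 for Shank3, −0.19 to 0.080 for Dlgap2, −0.23 to 0.25 for Dlgap3, −0.17 to 0.14 for Dlgap4, −0.047 to 0.15 for Camk2b, −0.062 to 0.096 for Ppp3ca and −0.18 to 0.23 for Ppp3cb. For the other members that turned they spanned −0.12 to 0.29 for Ppp1r9b, −0.24 to 0.12 for Ppp1r1a, −0.15 to 0.066 for Nrgn, −0.15 to 0.052 for Iqsec2, −0.078 to 0.15 for Kalrn, −0.15 to 0.29 for Baiap2, −0.040 to 0.074 for Sipa1l1, −0.031 to 0.11 for Lrrc7, −0.037 to 0.26 for Begain, −0.030 to 0.14 for Cnksr2, −0.059 to 0.097 for Anks1b, −0.14 to 0.26 for Grasp, −0.15 to 0.040 for Grip1 and −0.15 to 0.14 for Pick1. The share differences spanned −3.63 to 1.46 percentage points for Dlg4 and −1.41 to 1.14 for Ppp3ca. With 3 mice per genotype and unknown depth, differences of the size seen in most members lie within the spread between libraries.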

Other observations

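Interneuron and meningeal marker sums were recorded beside the neuronal lists. The 8 interneuron markers summed to 426 to 600 FPKM in Tet1-deficient libraries and 518 to 683 FPKM in wild-type libraries, and the 6 meningeal fibroblast markers to 39.1 to 56.3 FPKM in Tet1-deficient and 40.2 to 95.4 FPKM in wild-type libraries. The 8 astrocyte markers summed to 1159 to 1329 FPKM in Tet1-deficient libraries and 1114 to 1290.3 FPKM in wild-type libraries. The 9 oligodendrocyte markers summed to 3205 to 4192 FPKM in Tet1-deficient and 3529 to 3769 FPKM in wild-type libraries, and the 8 microglia markers to 146 to 163 FPKM in Tet1-deficient and 151 to 159 FPKM in wild-type libraries. The 7 endothelial markers summed to 25.3 to 52.4 FPKM in Tet1-deficient and 32.6 to 53.7 FPKM in wild-type libraries. Every one of these sums overlapped between the genotypes. Of the single markers tested, 1 interneuron marker, Gad1, and 1 meningeal marker, Dcn, were lower in every Tet1-deficient library (background 2.21%). The gaps were narrow. The highest Tet1-deficient and lowest wild-type values were 106.6 and 107.0 FPKM for Gad1, and 21.43 and 21.47 FPKM for Dcn. In these lists 0 markers were higher in every Tet1-deficient library, and 0 passed the threshold in limma. The 7 markers of other forebrain regions summed to at most 13.6 FPKM in any library.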
